A study of Homo sapiens with 2 samples.

Results

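Organic ion and bile acid uptake transporters are the membrane proteins of the SLC22, SLC10, SLC47 and SLCO gene families. Their members were taken as every protein-coding gene of the deposited table whose symbol starts with SLC22A, SLC10A, SLC47A or SLCO and a number, with SLCO2A1, the prostaglandin transporter, left out. The rule gave 43 genes out of 19951 protein-coding genes and 58735 genes in all. It includes SLC22A18AS, which the table lists as protein-coding and which lies antisense to SLC22A18. SLC22A18AS fits the rule by its symbol and is grouped here as an antisense partner, not as a transporter. It is still counted among the members and transporter genes below.

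RNA of PLC8024 cells, also called PLC/PRF/5 or Alexander cells, a human hepatoma cell line, was sequenced as 1 library of non-treated wildtype cells (MAEL WT) and 1 library of MAEL knockout cells (MAEL KO). MAEL was cut with sgRNA and Cas9, sorted cells were grown from single clones, and the loss was checked by Western blot and T7E1 assay. The labels do not say how many clones entered the KO library. The clone, the culture and the knockout cannot be told apart with 1 library per condition, and no difference below has a replicate check. Counts summed to 19904136 in MAEL WT and 20833332 in MAEL KO, and the floor of 3 counts per library equalled 0.151 and 0.144 CPM. The targeted gene could not check the labels, since MAEL was nearly unread, with 1 count under the WT label and 0 under the KO label. All 14 hepatocyte markers had counts in both libraries and were higher in MAEL KO, with a summed level of 18867 and 32243 CPM and with ALB at 59 and 8550 counts. Of the marker lists for other cell types, the summed level went from 23.6 to 225 CPM for kidney proximal tubule, from 240.1 to 102 CPM for intestinal epithelium, from 22.9 to 6.72 CPM for cholangiocytes, from 13.8 to 8.50 CPM for fibroblasts, from 18.0 to 19.5 CPM for endothelium and from 64.8 to 35.8 CPM for blood cells. The intestinal list did not go one way. MUC2 and CDH17 were at -6.46 and -2.44 on the log2 scale of MAEL KO over MAEL WT. CDX2, LGR5 and VIL1 were at 0.79, 1.38 and 0.70. The fibroblast list was mixed too, with COL3A1 at 1.52 and COL1A1 and PDGFRB at -2.75 and -1.83. Most of the blood cell sum came from LYZ, with 1251 counts in MAEL WT and 737 in MAEL KO. Most of the kidney sum came from LRP2, with 406 and 4638 counts. Of the genes in these lists, UMOD, CD3E and HBB were at 0 in both libraries. Fewer cells of a type and less RNA per cell cannot be told apart in such bulk libraries.

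These carriers bring charged solutes across the plasma membrane. SLC10A1 (NTCP) takes conjugated bile salts from the portal blood into hepatocytes, and the OATP proteins encoded by SLCO genes take up bilirubin, steroid conjugates, thyroid hormones and many drugs. The SLC22 family holds organic anion transporters, organic cation transporters and carnitine transporters, of which some act mainly in kidney and others in liver. The SLC47 proteins (MATE) export organic cations into bile or urine, and so complete the path that SLC22 carriers open.

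Of the 43 genes, 22 had at least 10 counts in 1 library, 11 had between 1 and 9 counts at most, and 10 were at 0 counts in both libraries. Of the 19951 protein-coding genes, 13700 had at least 10 counts, 2818 had 1 to 9 and 3433 were at 0. The summed counts were 9160 in MAEL WT and 7522 in MAEL KO, or 8539 and 8112 after TMM scaling to the mean library size. The 5 members with the most counts took 73.5% of the family's counts in MAEL WT and 78.0% in MAEL KO.

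Per kilobase of gene length, the scale on which genes can be compared, SLC10A3 and SLC22A31 led both libraries. SLC10A3 was at 27.3 FPKM in MAEL WT and 23.0 FPKM in MAEL KO, and SLC22A31 at 20.8 and 27.3 FPKM, so that their order was exchanged. The substrates of both proteins are poorly known. SLC22A18 followed at 10.9 and 6.56 FPKM, SLC22A15 at 9.89 and 4.79 FPKM, and SLC22A23 at 9.16 and 13.2 FPKM. An FPKM of at least 1 was reached by 12 of the 43 members in MAEL WT and by 10 in MAEL KO, beside 55.1% and 53.6% of protein-coding genes. The liver uptake carriers SLC10A1, SLCO1B1 and SLCO1B3 were not among them, while SLCO2B1, known from liver and intestine, was, at 2.05 and 3.31 FPKM. SLC10A1 was at 0.0446 and 0.206 FPKM, SLCO1B1 at 0.226 and 0.450 FPKM, and SLCO1B3 at 0 counts in both libraries.

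**Figure D1:**
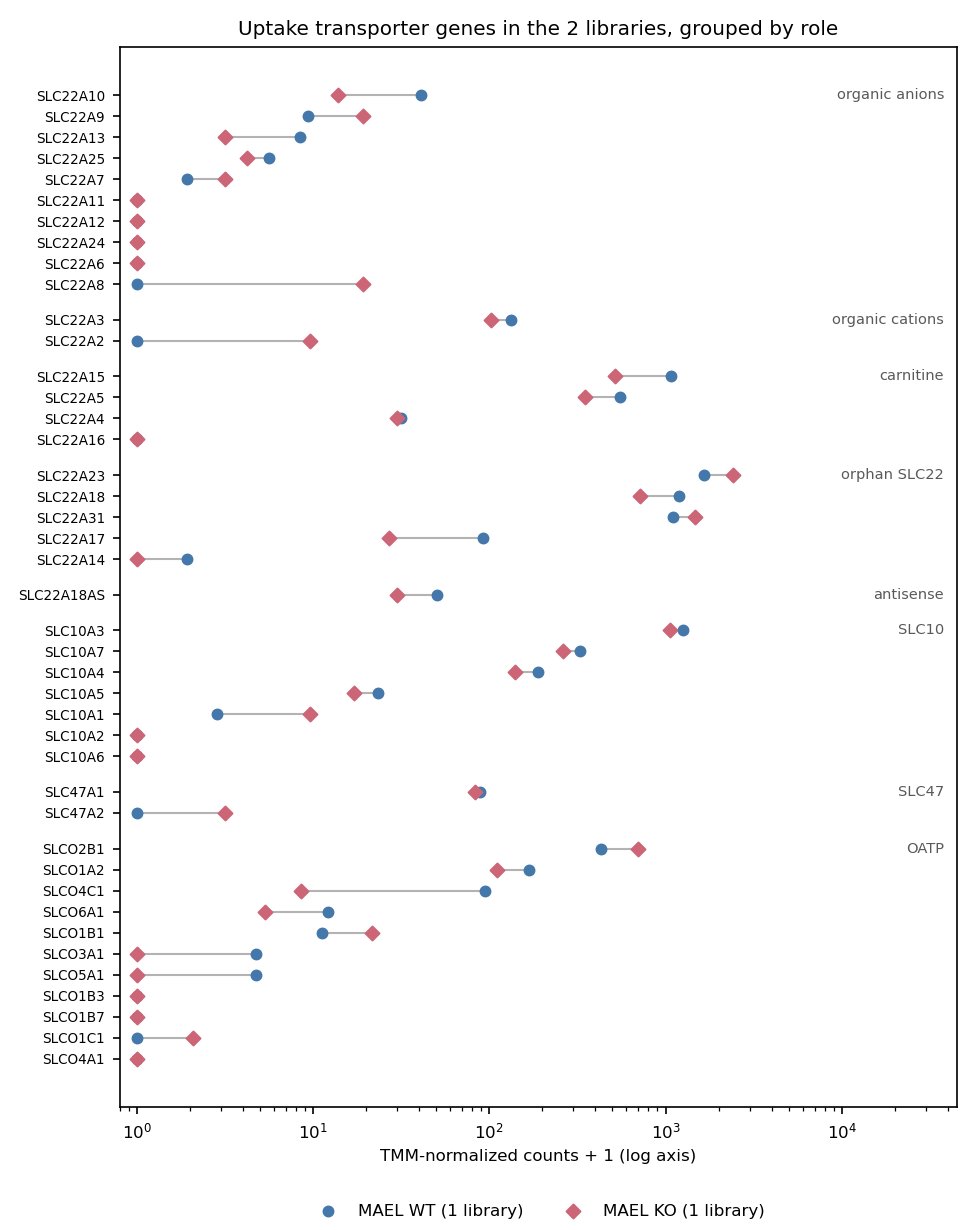
TMM-normalized counts with 1 added, on a log axis, of the transporter genes in the MAEL WT library (circles) and the MAEL KO library (diamonds), grouped by role. A diamond alone at 1 stands for both libraries at 0 counts, and the widest gaps belong to SLCO4C1 and SLC22A8.

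The comparison of MAEL KO with MAEL WT asked which transporters differed between the libraries. The log2 fold change, or log2 ratio, is that of MAEL KO over MAEL WT after adding 1 to the normalized counts, and each counting interval is an exact Clopper-Pearson interval at 95% that covers counting error only. The fold part of the cutoff in the study's methods, 2 on this scale, was used without its p-value part, since there is 1 library per condition. It was passed by 2 of the 22 counted members, SLC22A8 on the higher side and SLCO4C1 on the lower side. That is 9.09% of them, where 7.8% of all 17887 counted genes and 6.88% of the 13700 protein-coding ones passed it, so the members called are near the background. SLC22A8 reached 10 counts in MAEL KO alone and SLCO4C1 in MAEL WT alone, so each passed the count filter only through the library where it was higher. The same filter was applied to all genes. Of all genes 2.16% were over 2 and 5.64% under -2, and of the protein-coding ones 1.96% and 4.93%. Scaled by total counts, which puts the median of all genes at -0.31, the share of higher genes among those called was 17.0% and not 27.7%, and the median of the members was -0.68. Of the counted members, 16 had a log2 fold change below 0, a share of 72.7%, where the share over protein-coding genes was 49%. Their median was -0.40, against 0.02 for protein-coding genes and -0.04 for all genes. Over the 12 members that reached 100 counts in 1 library, the median was -0.40. Of these 12, 9 were below 0, beside 44.7% of protein-coding genes at that depth. None of the 12 was over 2 and 1 was under -2, beside 1.48% and 2.26%. That 1 was SLCO4C1, which reached 100 counts in MAEL WT alone, with 101 counts there and 7 in MAEL KO. The 12 are part of the 22 and give no separate check. The values behind these counts are described by role.

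**Figure D2:**
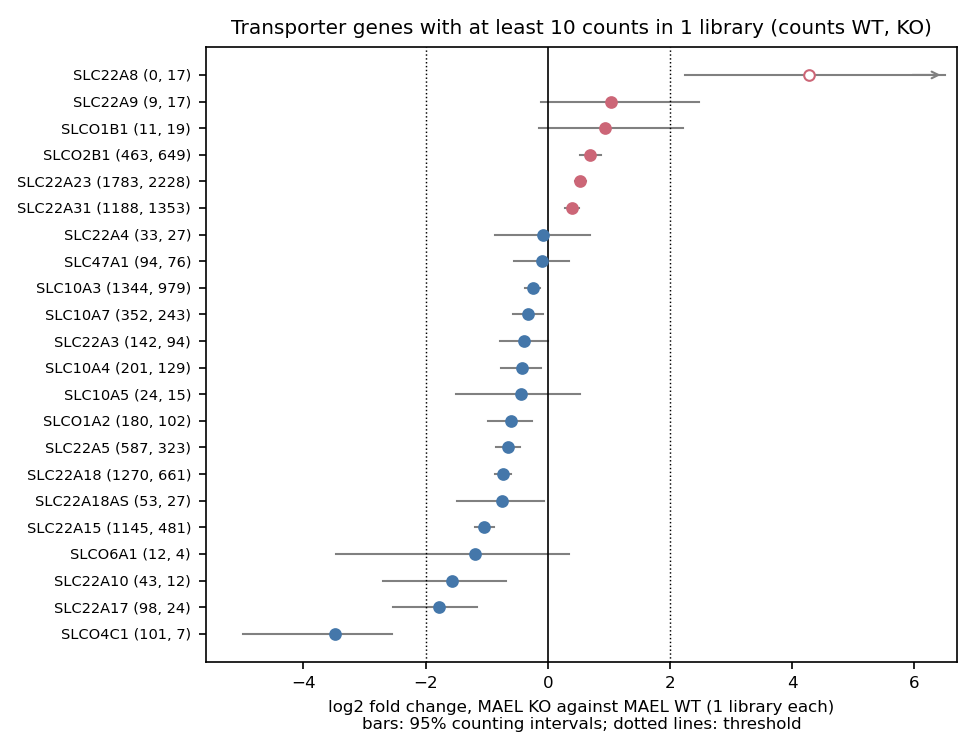
Log2 fold change, MAEL KO over MAEL WT, of the 22 members with at least 10 counts in 1 library, SLC22A18AS included. Raw counts of MAEL WT and MAEL KO stand beside each name. Bars are 95% counting intervals, the open point is SLC22A8 with 0 counts in MAEL WT and an interval without upper end, and dotted lines mark the threshold of 2.

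SLCO4C1 encodes an OATP known from the kidney tubule, where it takes up digoxin, thyroid hormone and uremic solutes. Its position in GRCh38 is chromosome 5, 102233986 to 102296549, minus strand. It had 101 counts in MAEL WT and 7 in MAEL KO, a log2 ratio of -3.48 (counting interval -4.99 to -2.55). This was the largest difference among members above the floor in both libraries. No other annotated gene shares exon bases with it. SLCO6A1, a testis OATP that is its nearest neighbour 75232 bases away, had 12 and 4 counts, a log2 ratio of -1.20 (counting interval -3.46 to 0.35), which includes 0. On the other side the nearest protein-coding gene, ST8SIA4, lies 1330719 bases away and had 1 and 0 counts.

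The remaining OATP genes went both ways. SLCO2B1, which transports statins and steroid sulphates in liver and intestine, had 463 counts in MAEL WT and 649 in MAEL KO, a log2 ratio of 0.70 (counting interval 0.52 to 0.87). SLCO1A2, a carrier of bile acids and drugs known from brain capillaries and bile duct cells, had 180 and 102 counts, a log2 ratio of -0.60 (counting interval -0.97 to -0.25). The liver carrier SLCO1B1 (OATP1B1) had 11 and 19 counts, and its interval of -0.15 to 2.22 includes 0. SLCO3A1 and SLCO5A1 each had 4 counts in MAEL WT and 0 in MAEL KO, and SLCO1C1, a thyroxine carrier, had 0 and 1. SLCO1B3, SLCO1B7 and SLCO4A1 were at 0 counts in both libraries. SLCO1B3 and SLCO1B7 share 54.5% and 60.4% of their exon bases with the overlapping gene AC011604.2, which itself had 0 and 1 counts.

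Among the organic anion transporters, SLC22A8 (OAT3) stood apart. OAT3 is the basolateral exchanger that brings organic anions, among them many drugs, into kidney tubule cells. Its gene occupies 62989154 to 63015839 of chromosome 11, minus strand. It had 0 counts in MAEL WT and 17 in MAEL KO, at least 6.56-fold higher when the 17 counts are taken as exact and MAEL WT is set to the floor of 3 counts per library. With the counting error of both libraries, the lower limit of its interval was 2.26 on the log2 scale, or 4.77-fold. Its level in MAEL KO was low, 0.105 FPKM. None of its 8889 different 50-base stretches occurs in another annotated transcript. Its partner SLC22A6 (OAT1), 4170 bases away, was at 0 counts in both libraries, as was SLC22A24 on the other side, 64100 bases away. Of the proximal tubule markers, LRP2, the endocytic receptor megalin, had 406 and 4638 counts and SLC34A1 had 0 and 13. AQP1 had 14 and 4 counts, SLC5A2 49 and 23, and CUBN 1 and 0, so the markers of that cell type did not move together. Their part in the value of SLC22A8 was not tested.

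SLC22A10 and SLC22A9 lie in the same cluster on chromosome 11, 70 bases apart. SLC22A10 had 43 counts in MAEL WT and 12 in MAEL KO, a log2 ratio of -1.56 (counting interval -2.69 to -0.68). SLC22A9 (OAT7), a liver carrier of sulphate conjugates, had 9 and 17 counts, and its interval of -0.12 to 2.48 includes 0. The point values of these neighbours thus had opposite signs. SLC22A25, whose exons overlap those of SLC22A10 on the opposite strand over 187 bases, had 5 and 3 counts. SLC22A7 (OAT2) had 1 and 2 counts, and SLC22A13, a carrier of nicotinate and urate, had 8 and 2. The placental and renal SLC22A11 (OAT4) and the renal urate exchanger SLC22A12 (URAT1) were at 0 counts in both libraries.

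The organic cation transporters form a cluster on chromosome 6. SLC22A3 (OCT3), the broadly expressed member, had 142 counts in MAEL WT and 94 in MAEL KO, a log2 ratio of -0.38 (counting interval -0.78 to 0.00). The renal SLC22A2 (OCT2) had 0 and 8 counts, which are below the minimum set for a fold change.

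The carnitine and zwitterion carriers with counts were all lower in MAEL KO. SLC22A15, a carrier of zwitterions such as ergothioneine, had 1145 counts in MAEL WT and 481 in MAEL KO, a log2 ratio of -1.04 (counting interval -1.20 to -0.89). SLC22A5 (OCTN2), the high-affinity carnitine importer, had 587 and 323 counts, a log2 ratio of -0.65 (counting interval -0.85 to -0.45). SLC22A4 (OCTN1), the ergothioneine transporter 25545 bases from SLC22A5, had 33 and 27 counts, and its interval of -0.87 to 0.70 includes 0. Of the exon bases of SLC22A4, 8.74% overlap MIR3936HG on the opposite strand, which had 169 counts in MAEL WT and 64 in MAEL KO. Without strand, reads in these bases could not be told apart. SLC22A16, a carnitine transporter of testis, was at 0 counts in both libraries. The genes of carnitine use among the partners listed further on, chosen here after their values were seen, had log2 ratios of 1.19 for CPT1A and 1.02 for CPT2, which move acyl groups onto and off carnitine, 0.27 for CRAT, the carnitine acetyltransferase, and 0.41 for SLC25A20, the mitochondrial acylcarnitine carrier.

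The orphan SLC22 genes held the most counts of the family and were split. SLC22A23, whose protein has no settled substrate, had 1783 counts in MAEL WT and 2228 in MAEL KO, a log2 ratio of 0.53 (counting interval 0.44 to 0.62). Of its exon bases, 15.6% overlap PSMG4 on the opposite strand, which had 703 and 768 counts, and whether counting used strand is not given in the sources used here. SLC22A31 had 1188 and 1353 counts, a log2 ratio of 0.40 (counting interval 0.28 to 0.51). Scaled by total counts, the log2 ratios of SLC22A23 and SLC22A31 were 0.26 and 0.12. SLC22A17, the cell surface receptor of lipocalin 2, had 98 and 24 counts, a log2 ratio of -1.78 (counting interval -2.53 to -1.16), which stopped just short of the threshold. SLC22A14 had 1 and 0 counts.

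SLC22A18 lies in the imprinted domain at the tip of the short arm of chromosome 11, at 2899721 to 2925246, plus strand. Counts were 1270 in MAEL WT and 661 in MAEL KO, a log2 ratio of -0.73 (counting interval -0.87 to -0.60). Its antisense partner SLC22A18AS had 53 and 27 counts, a log2 ratio of -0.74 (counting interval -1.49 to -0.07). The genes share 227 exon bases, 12.7% of those of SLC22A18AS, in which their reads could not be told apart without strand. Both flanking genes were lower too, and they were chosen after their values were seen. CDKN1C, an inhibitor of cyclin-dependent kinases, had 44 and 2 counts, a log2 ratio of -3.73 (counting interval -7.34 to -2.31). PHLDA2, a growth-restraining gene, had 486 and 133 counts, a log2 ratio of -1.65 (counting interval -1.95 to -1.38). The next gene beyond PHLDA2, NAP1L4, was higher in MAEL KO, with 1652 and 2179 counts and a log2 fold change of 0.61.

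All 4 counted genes of the SLC10 family were lower in MAEL KO, and by little. SLC10A3, which has no known transport function, had 1344 counts in MAEL WT and 979 in MAEL KO, a log2 ratio of -0.25 (counting interval -0.37 to -0.13). SLC10A7, needed for calcium balance and for glycosaminoglycan synthesis in the Golgi, had 352 and 243 counts, a log2 ratio of -0.32 (counting interval -0.57 to -0.08). SLC10A4, a protein of synaptic vesicles, had 201 and 129 counts, a log2 ratio of -0.43 (counting interval -0.76 to -0.10). SLC10A5 had 24 and 15 counts, and its interval of -1.50 to 0.52 includes 0. The SLC10 members that carry bile acids or steroid sulphates were nearly absent. SLC10A1 (NTCP) had 2 and 8 counts, and the ileal bile acid transporter SLC10A2 (ASBT) and the steroid sulphate carrier SLC10A6 (SOAT) were at 0 counts in both libraries. A count of 0 allows up to 3 counts at this depth.

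Of the MATE exporters, SLC47A1 had 94 counts in MAEL WT and 76 in MAEL KO, and its interval of -0.55 to 0.36 includes 0. SLC47A2 had 0 and 2 counts.

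At a log2 threshold of 1, the members on the lower side were SLC22A10, SLC22A15, SLC22A17, SLCO4C1 and SLCO6A1, or 22.7% of those counted, where 13.5% of protein-coding genes were under -1. The members on the higher side were SLC22A8 and SLC22A9, or 9.09%, beside 9.41% of protein-coding genes. SLC22A8 and SLC22A9 reached 10 counts in MAEL KO alone, and SLCO4C1 and SLCO6A1 in MAEL WT alone. These members thus passed the count filter only through the library where they were higher. The counting intervals of SLC22A9 and SLCO6A1 include 0. The counting interval lay below 0 for 11 members and above 0 for 4, or 50% and 18.2%, where it did so for 35.9% and 40% of protein-coding genes. SLC22A8, SLC22A23, SLC22A31 and SLCO2B1 made up the 4 higher ones. These shares have no test, since the libraries have no replicates.

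**Figure D3:**
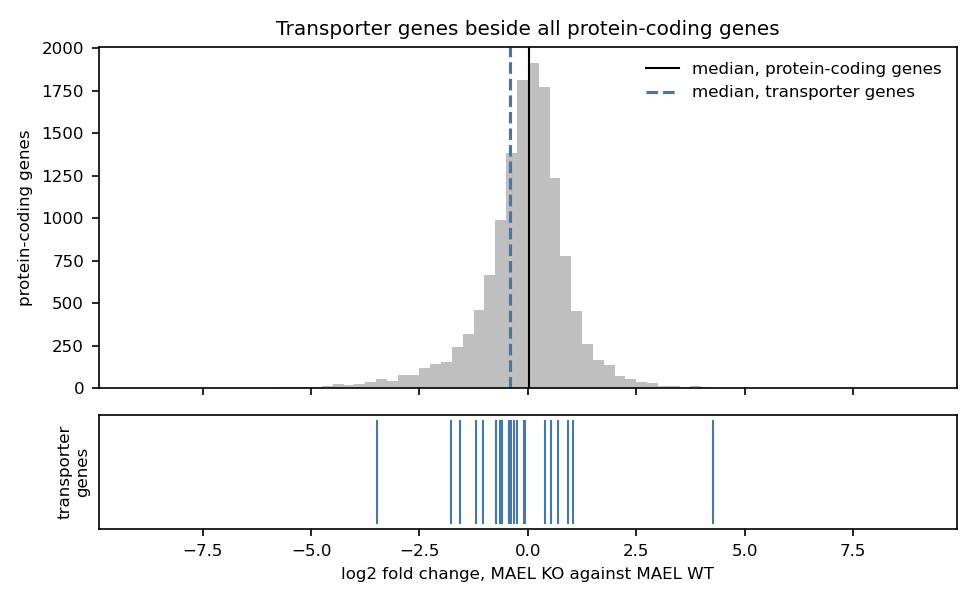
Distribution of log2 fold changes over 13700 protein-coding genes (histogram, with their median at 0.02 as a solid line). Below it are the 22 counted members, SLC22A18AS included (ticks, with their median at -0.40 as a dashed line). The ticks lie mostly within the bulk of the histogram, with SLCO4C1 at -3.48 and SLC22A8 at 4.27 at the ends.

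Promoter sequences show how different the annotated starts of these genes are. RefSeq (GRCh38.p14) promoters, from 250 bases before to 50 after an annotated start, were matched by symbol for 27 of the 43 members, 33 promoters in all. Some of these windows do not lie at the outer end of the gene as the deposited coordinates give it. The window of SLC22A23, at 3324101 to 3324400, lies inside a minus-strand gene that spans 3268962 to 3457022. The windows of SLCO1A2, SLCO2B1, SLC22A10, SLC22A2, SLC22A7, SLC22A12 and SLC10A2 also lie inside their genes. So does the window of SLCO4C1 printed below, which ends at 102296534 in a minus-strand gene that ends at 102296549. SLC22A14, SLC22A17, SLC47A2 and SLCO3A1 each have a window inside the gene and another that reaches its outer end. The following 5 are printed in the direction of the gene because they belong to SLCO4C1 and SLC22A15, the counted members with the lowest values among those of at least 100 counts, to SLC22A31, the member with the highest FPKM in MAEL KO, and to the liver carriers SLCO1B1 and SLC10A1. Capitals mark every match, on either strand, to the 11 motifs searched.
SLCO4C1 (chr5:102296235-102296534, minus strand): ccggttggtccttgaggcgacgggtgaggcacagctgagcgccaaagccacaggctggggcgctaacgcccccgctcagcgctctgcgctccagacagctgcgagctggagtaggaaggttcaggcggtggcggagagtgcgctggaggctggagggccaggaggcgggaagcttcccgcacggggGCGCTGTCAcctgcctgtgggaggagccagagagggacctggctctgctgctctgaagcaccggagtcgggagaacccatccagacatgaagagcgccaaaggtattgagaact
SLC22A15 (chr1:115976263-115976562, plus strand): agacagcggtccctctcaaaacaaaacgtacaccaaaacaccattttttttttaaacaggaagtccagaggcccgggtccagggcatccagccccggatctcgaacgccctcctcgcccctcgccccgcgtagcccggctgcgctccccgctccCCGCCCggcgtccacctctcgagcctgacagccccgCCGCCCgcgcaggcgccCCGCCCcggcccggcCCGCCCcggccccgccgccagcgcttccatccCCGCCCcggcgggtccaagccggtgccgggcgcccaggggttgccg
SLC22A31 (chr16:89201629-89201928, minus strand): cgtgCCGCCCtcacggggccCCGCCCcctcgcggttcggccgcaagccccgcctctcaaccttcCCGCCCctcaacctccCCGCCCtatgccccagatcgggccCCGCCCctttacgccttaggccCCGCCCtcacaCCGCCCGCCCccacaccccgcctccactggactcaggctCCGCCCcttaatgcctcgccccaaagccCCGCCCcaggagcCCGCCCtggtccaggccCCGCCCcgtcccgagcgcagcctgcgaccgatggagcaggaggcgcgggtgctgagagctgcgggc
SLCO1B1 (chr12:21130944-21131243, plus strand): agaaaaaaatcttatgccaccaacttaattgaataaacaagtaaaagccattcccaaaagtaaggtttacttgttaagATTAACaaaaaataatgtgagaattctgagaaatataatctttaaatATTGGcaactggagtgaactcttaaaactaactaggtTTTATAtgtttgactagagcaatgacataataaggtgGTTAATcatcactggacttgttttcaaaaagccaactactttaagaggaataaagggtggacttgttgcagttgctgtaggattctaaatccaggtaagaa
SLC10A1 (chr14:69797192-69797491, minus strand): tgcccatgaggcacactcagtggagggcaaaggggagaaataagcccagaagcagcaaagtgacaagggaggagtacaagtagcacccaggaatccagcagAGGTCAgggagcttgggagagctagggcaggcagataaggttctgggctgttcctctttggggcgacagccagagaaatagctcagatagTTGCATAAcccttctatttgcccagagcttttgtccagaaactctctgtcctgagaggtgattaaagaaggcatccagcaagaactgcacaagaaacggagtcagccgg

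SLC22A15 and SLC22A31 carried the GC box GGGCGG at 5 and 12 places, SLCO4C1 had a single match to the antioxidant element TGACNNNGC, SLCO1B1 held the HNF1 motif GTTAAT in both directions, a TATA box (TATAAA) and a CCAAT box (CCAAT), and SLC10A1 held a nuclear receptor motif (AGGTCA) and a C/EBP match (TTGCNNAA). Over all members with a promoter, GTTAAT was found in 5 of 33 promoters, those of SLC10A2, SLC22A6, SLCO1A2, SLCO1B1 and SLCO1B3, or 15.2%, where 6.88% of all 35116 promoters held it. The GC box was in 36.4% of member promoters and 45.0% of all, and CCAAT in 42.4% and 34.6%. TATAAA was in 18.2% and 11.5%, AGGTCA in 15.2% and 13.8%, TTGCNNAA in 15.2% and 10.5%, and TGACNNNGC in 6.06% and 13.3%. The CRE motif TGACG, which can lie inside TGACNNNGC, was in 24.2% and 24.6%, the AP-1 motif TGANTCA in 6.06% and 7.71%, the HNF4 motif CAAAGTCC in 6.06% and 1.20%, and the E-box CACGTG in 3.03% and 7.26%. These matches are a description of letters in a window and not of binding.

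The CpG content of the matched promoter windows had a higher median for counted members than for the others. The observed over expected ratio of CpG had a median of 0.623 over the 17 promoters of members with at least 10 counts and of 0.290 over the 16 promoters of the other members, beside 0.579 over all promoters. A ratio of at least 0.6 was found in 9 of the 17 and 3 of the 16, or 52.9% and 18.75%, beside 48.9% of all promoters. The 17 and 16 promoters belong to 14 and 13 genes. Both windows of SLCO3A1, with ratios of 0.961 and 0.846, are among the 3 of the 16. Windows inside a gene occur on both sides, and members without a matched window are left out. SLC22A16, with 0 counts in both libraries, had a ratio of 0.982, and SLCO1A2, with counts of 180 and 102, had promoters at 0 and 0.214, so there were exceptions both ways, and no test was made. The printed SLCO1B1 promoter holds no CpG at all, and that of SLC22A15 had a ratio of 1.00.

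**Figure D4:**
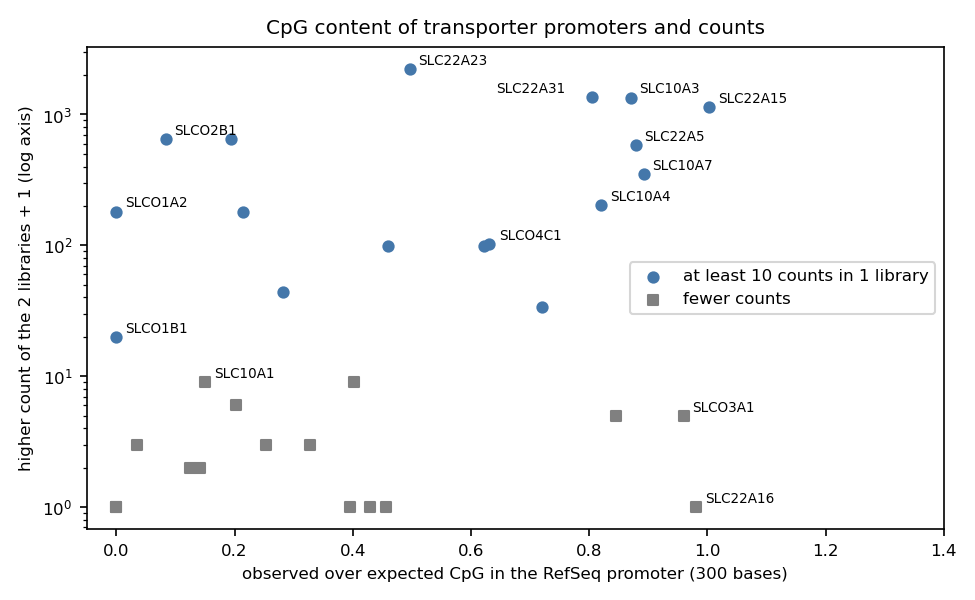
Observed over expected CpG in 33 RefSeq promoters of 300 bases of 27 transporter genes, against the higher count of the 2 libraries with 1 added, on a log axis. Members with at least 10 counts (circles) reach from 0 to 1.00, while 13 of the 16 promoters of the others (squares) lie under 0.6.

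The other genes of bile acid and organic ion handling were given by 4 lists. Of 16 genes of bile acid synthesis and conjugation, 12 were counted, with a median log2 fold change of 0.71, 1 gene over 2 and 1 under -2. BAAT, which joins bile acids to taurine or glycine, had 5 counts in MAEL WT and 92 in MAEL KO, a log2 ratio of 4.15 (counting interval 3.14 to 6.07). CYP39A1, a sterol hydroxylase of a minor route, had 555 and 88 counts, a log2 ratio of -2.43 (counting interval -2.79 to -2.12). The peroxisomal genes HSD17B4, SCP2 and ACOX2, which shorten the bile acid side chain, were at 0.60, 0.82 and 1.28. CYP7A1, the rate-limiting enzyme of the main route, chosen after its value was seen, was at 0 counts in both libraries.

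Of 14 efflux pump genes, 11 were counted with a median of 0.01, and none passed 2 in either direction. ABCC2 (MRP2), the canalicular pump for conjugated anions, had 11802 counts in MAEL WT and 6773 in MAEL KO, a log2 ratio of -0.59 (counting interval -0.63 to -0.55). ABCC4 (MRP4), a basolateral exporter, was at -0.38 and TMEM30A, a flippase partner, at 0.19. The median near 0 covers genes that differed both ways. ABCB1 (MDR1), a drug efflux pump, had 108 and 287 counts, a log2 ratio of 1.61 (counting interval 1.30 to 1.95). ABCC3 (MRP3), a basolateral exporter of conjugates, had 802 and 213 counts, a log2 ratio of -1.70 (counting interval -1.93 to -1.48). ABCB11 (BSEP), the bile salt export pump, had 1 and 0 counts. These 3 pumps were chosen after their values were seen.

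Of 21 transcription factors of liver transporters, 20 were counted with a median of 0.25. NR1H4, which encodes the bile acid receptor FXR, had 9 counts in MAEL WT and 270 in MAEL KO, a log2 ratio of 4.96 (counting interval 4.17 to 6.26). CEBPB, a stress and acute-phase factor, had 9375 and 1723 counts, a log2 ratio of -2.23 (counting interval -2.31 to -2.16). HNF4A, NFE2L2 and AHR were at 1.15, 0.89 and -0.39. Of the 14 partners and scaffolds in the table, 12 were counted with a median of 0.34. PDZK1, the scaffold that holds several of these carriers at the membrane, had 134 and 811 counts, a log2 ratio of 2.80 (counting interval 2.54 to 3.08), and SLC9A3R1 (NHERF1), a related scaffold, was at 1.52. FABP6, the ileal bile acid binding protein, had 32 and 5 counts, a log2 ratio of -2.27 (counting interval -4.18 to -1.10). BSG, a chaperone of lactate carriers, was at 0.18.

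**Figure D5:**
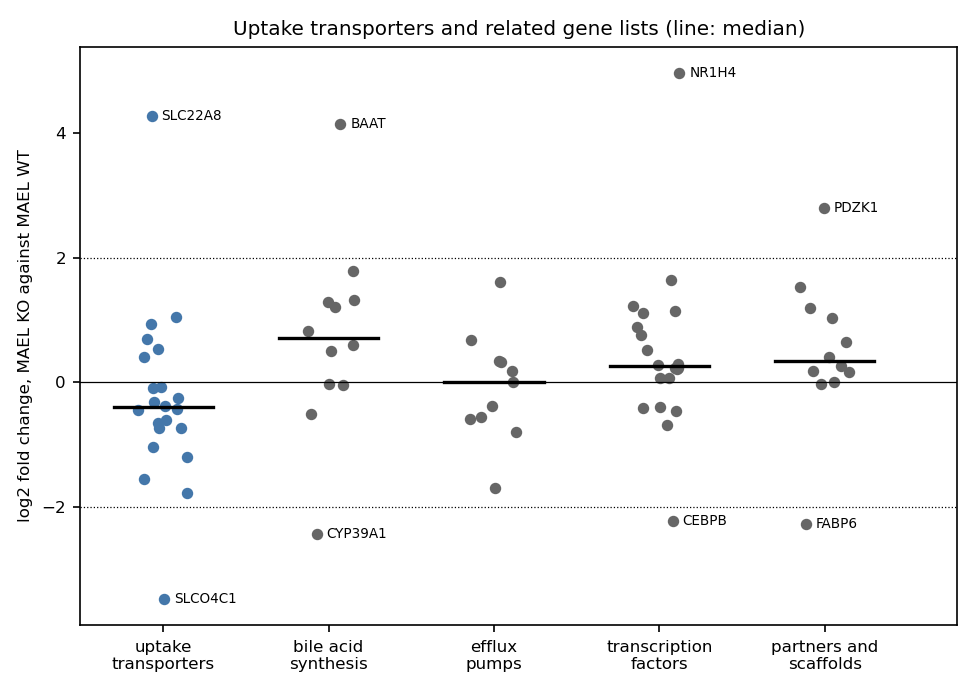
Log2 fold change, MAEL KO over MAEL WT, of the counted members of the uptake transporters and of the 4 related lists, 1 point per gene with the median as a line and genes past 2 named. The medians are -0.40 for the transporters, 0.71 for bile acid synthesis, 0.01 for efflux pumps, 0.25 for transcription factors and 0.34 for partners and scaffolds.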

How the data were processed

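The authors sequenced total RNA on a HiSeq platform and deposited raw counts per gene for 1 MAEL WT and 1 MAEL KO library, and a table of FPKM values. The submitters' processing notes name HISAT2 2.0.5, featureCounts 1.5.0-p3 and hg19, with no role given. The coordinates of all 58735 genes in the table equal those of GENCODE 29 on GRCh38, and GRCh38 was used here. The deposited FPKM values equal counts per kilobase of gene length over a library size rescaled between the libraries, to 1.10 and 0.910 times the total counts.

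Counts were scaled by TMM in edgeR 4.0.16 (factors 1.10 and 0.909) under R 4.3.3, with DESeq2 1.42.0 for other size factors. Fold changes and exact intervals were computed in Python 3.11.15 with SciPy 1.17.1 for genes with at least 10 counts in 1 library, with 1 added. A library at 0 counts was set to 3 counts for a bound. No p-value is given, since neither condition has a second library. Intervals and floors cover counting error only, as no molecular identifiers separate PCR copies. The steps were tested on simulated data. The members and the lists were chosen with earlier results of these data known. Every member is named except 1, whose result is not reported here, and of each related list the genes past 2 and up to 3 others by total counts, with those outside this rule marked as chosen after their values were seen. Alternatives were other scalings, the FPKM ratio, added counts of 0.1 and 5, other count filters and a log2 threshold of 1.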

Additional observations from a re-analysis of the deposited data

How the results depend on the processing

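No paired analysis was possible because each group has 1 library, and leaving out a library was not possible for the same reason. Under total counts, DESeq2 size factors, FPKM ratios and added counts of 0.1 and 5, none of 110 values of the 22 counted members changed sign, and 9 moved beyond their counting interval, all but that of SLC22A8 with 5 added (2.22) with total counts. Total counts moved the median of all genes from -0.04 to -0.31, the median of the members to -0.68 and that of the transcription factors to -0.0197, and put 2 members on the lower side, since SLC22A17 came to -2.05. Without a count filter 2 members were higher and 3 lower past the threshold, with at least 100 counts 0 were higher, and at a log2 threshold of 1 there were 2 and 5. The numbers of all genes higher and lower were 250 and 513 with 5 added, and 1029 and 1773 without a count filter, against 387 and 1008. A minimum of 100 counts gave 185 and 283, and a threshold of 1 gave 1827 and 2951. These follow from the size of the added count, filter or threshold. Higher genes made up 27.7% of those called, 17.0% under total counts, 36.7% without a count filter, 39.5% for a minimum of 100 counts and 38.2% for a threshold of 1. Depth limits the statements on the 21 members under 10 counts.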
